A study of Mus musculus with 13 samples.

Results

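The genes described here are 8 markers of adult neurogenesis, Dcx, Sox11, Sox4, Igfbpl1, Eomes, Neurod1, Top2a and Mki67, taken by gene symbol from the 32285 genes of each deposited matrix. Each symbol matched 1 gene. Their UMIs (unique molecular identifiers, each standing for 1 captured RNA molecule) were read in single nuclei of whole frozen hippocampus, with 1 library per mouse and 13 mice in all. All mice were female, of the C3B6F1 hybrid strain (C3HB6F1 in the sample labels), with no transgene named. The young mice were 5 months old and fed ad libitum (n = 3), and the old ad libitum mice were 24 months old (n = 3). The acute restriction mice were also 24 months old, with diet restricted from 20 months (n = 3), and the long-term restriction mice were 24 months old, with diet restricted from 5 months (n = 4). The last 3 groups are called aged below. Contrasts of aged against young mice mix age with diet, since the restricted mice differ from the young mice in both. Only old against young ad libitum mice share a diet.

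In the adult dentate gyrus, radial glia-like stem cells divide and give rise to intermediate progenitors, then to neuroblasts and immature granule neurons that mature among existing granule neurons. Top2a and Mki67 mark dividing cells, Eomes (Tbr2) marks intermediate progenitors, and Neurod1, Sox4, Sox11, Igfbpl1 and Dcx are read at the neuroblast and immature neuron stages. In mice the process is known to decline steeply with age. Several of these genes also have roles outside it, among them Dcx in interneurons and Sox4 in glia.

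The libraries held 3524 to 12368 barcodes and 38546292 to 80538090 UMIs. After filtering, 98041 nuclei remained, with medians of 3688 to 11195 UMIs per nucleus by library. Clusters were built without the 8 genes and named from marker lists, which placed 89626 nuclei in 14 classes, written X-like. No cluster carried the name of an immature granule neuron or of a dividing cell. Granule neuron-like nuclei numbered 40456, in 4 clusters that each raised 11 markers of that list. The 4 libraries numbered 1, 1 in each group, stood apart: in granule neuron-like nuclei their deviations from the group means correlated at 0.363 to 0.782 with each other. The main age contrasts in granule neuron-like nuclei are therefore also given without them. Depth also differed with age, and is given beside the results it touches.

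Igfbpl1, which encodes an IGF-binding protein-like factor used as a neuroblast marker, was lower in the aged than in the young mice. Between the ad libitum groups alone it passed the test in granule neuron-like nuclei and not in all nuclei. No other of the 8 genes passed in either. Igfbpl1 entered the test through the young mice alone, as given below. Mki67 passed in some of the alternative fits. Igfbpl1 lies on chromosome 4 at 45809468 to 45826923 (minus strand, GRCm38), with 5 exons in its longest transcript and no overlapping gene. In granule neuron-like nuclei of the young mice its level was 1.01, 1.07 and 0.981 CPM, from 25, 20 and 22 UMIs, where CPM is the number of UMIs of the gene per 1000000 UMIs of the class. The old ad libitum mice had 0, 0 and 0.134 CPM. The acute restriction mice had 0.0513, 0 and 0.0672 CPM, and the long-term restriction mice 0, 0.147, 0.293 and 0 CPM. All 10 aged mice lay below every young mouse, and 5 of the 10 had no Igfbpl1 UMI in this class.

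The young mean was 1.02 ± 0.0472 CPM (SD, n = 3) and the aged mean 0.0693 ± 0.0970 CPM (SD, n = 10). With UMIs pooled over mice, the young level was 17.8 times the aged level (67 against 12 UMIs, exact 95% interval 9.57 to 36.3, counting error only). Against the old ad libitum mice alone, which held 3 UMIs in this class, the ratio was 21.0 (interval 6.88 to 104). By edgeR's quasi-likelihood test with Benjamini-Hochberg adjustment over all genes, the log2 fold change was -4.08 (SE 0.95) in old against young ad libitum mice (adjusted p = 0.0441). For the aged groups together against the young mice it was -3.91 (SE 0.63, adjusted p = 0.00575). These are contrasts that share the young mice. Igfbpl1 passed the filter on low counts only through the young mice: the filter asked for a level of 10 UMIs at the median library (0.452 CPM in this class) in 3 mice, which 3 of 3 young and 0 of 10 aged mice reached, so a gene admitted this way is one that differs. With no filter on low counts, all genes with a UMI being tested, the log2 fold change was -4.07 (adjusted p = 0.0333) in old against young ad libitum mice and -3.90 (adjusted p = 0.00134) for the aged groups together.

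In all nuclei together, Igfbpl1 stood at 0.927, 0.781 and 0.772 CPM in the young mice and at 0 to 0.167 CPM in the aged mice, again without overlap. The log2 fold change of aged against young mice was -2.77 (SE 0.41, edgeR adjusted p = 0.0492). Here too only the young mice, 3 of 3 against 0 of 10 aged mice, reached the filter's level of 0.208 CPM, and with no filter the value was -2.76 (adjusted p = 0.0381). That of old against young ad libitum mice was -2.80 (SE 0.59, adjusted p = 0.134). A sum over all nuclei does not tell fewer nuclei with the gene from less RNA in each. Igfbpl1 UMIs were found in 91 of 24290 young and 47 of 73751 aged nuclei, counts that also move with depth.

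Of 35 fits of a member in a class or in all nuclei, 1 was called in old against young ad libitum mice, against 1.34% of all fits of all genes. Aged against young mice gave 2 calls, against 3.72% of all fits. In granule neuron-like nuclei alone, 3.41% and 14.2% of 16903 genes were called in these contrasts, and 1 of the 6 members that passed the filter on low counts. In all nuclei, 7 of 20089 genes (0.0348%) were called in aged against young mice, and Igfbpl1 was 1 of them. Eomes passed the filter nowhere, and Top2a passed in all nuclei alone.

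The granule neuron-like calls held in 20 of 21 alternative fits for aged against young mice and in 11 of 21 for old against young ad libitum mice. The call in all nuclei held in 8 of 21. Of 22 alternatives, only the 21 that gave Igfbpl1 an adjusted p are counted. All refit these same mice, or part of them, with a gene admitted because it differs. The counts therefore describe how the calls depend on the processing and are no support for them. With the median UMIs per nucleus as a covariate, the log2 fold change in granule neuron-like nuclei was -4.09 for aged against young mice, and the edgeR adjusted p rose to 0.0733. Median depth in this class was 3879 to 6557 UMIs per nucleus in the young mice and 5685 to 12794 in the aged mice, so the ranges overlapped. Without the 4 libraries numbered 1 the log2 fold change was -3.68 (adjusted p = 0.00267), and with a term for them -3.96 (adjusted p = 0.000578). The call in old against young ad libitum mice was lost with median UMIs per nucleus as a covariate. Over the alternatives of this contrast the edgeR adjusted p reached 0.503. The call was also lost on leaving out any 1 of 9 of the 13 mice, with adjusted p of up to 0.194 without old ad libitum mouse 2. Without old ad libitum mouse 4, which held all 3 Igfbpl1 UMIs of its group, the log2 fold change was -7.32 (adjusted p = 0.115).

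**Figure D1:**
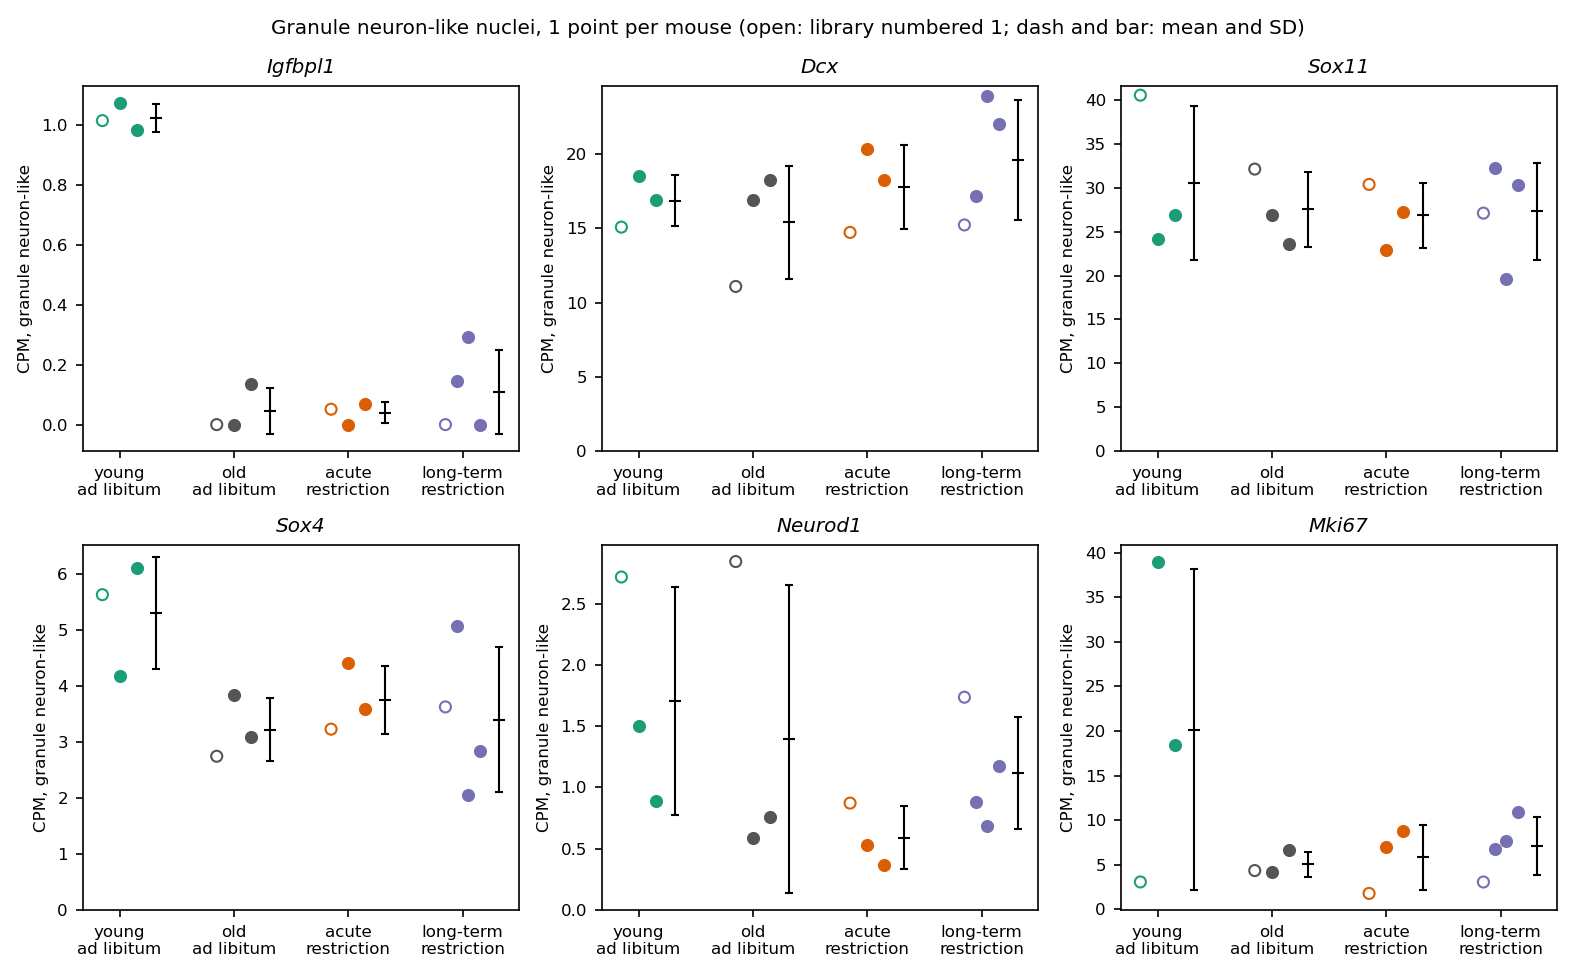
Level (CPM) of 6 marker genes in granule neuron-like nuclei, with 1 point per mouse in each of the 4 groups; open points are libraries numbered 1, and the dash and bar give the mean and SD. The 3 young mice lie above all 10 aged mice for Igfbpl1, and young mouse 2 at 39.0 CPM is the highest for Mki67.

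The nuclei behind these values were few. Igfbpl1 UMIs were found in 15, 16 and 18 granule neuron-like nuclei of the young mice, 49 of 11931 in all, and in 10 of 28525 nuclei of the aged mice. No oligodendrocyte-like nucleus (0 of 10008, median 1885 UMIs, which allows a share with a UMI of up to 0.0300%) and no microglia-like nucleus (0 of 1626, median 1402 UMIs, up to 0.185%) had an Igfbpl1 UMI. These limits are for nuclei with a UMI at these depths, not for nuclei expressing the gene, and cover counting error in nuclei pooled over mice. After each nucleus was thinned to 1000 UMIs, the share in granule neuron-like nuclei was 0.0565%, 0.109% and 0.211% in the young mice. No thinned nucleus of 8 aged mice had an Igfbpl1 UMI, and 2 long-term restriction mice stood at 0.0326% and 0.0941%. Another 79 nuclei with an Igfbpl1 UMI lay outside this class, 42 of them from young mice, and 21 of the 79 were subicular or cortical excitatory-like. Barcodes marked as doublets and removed held Igfbpl1 more often than the nuclei kept, 31 of 7386 (0.420%) against 138 of 98041 (0.141%). Of the 31, 9, 4 and 5 came from young mice 1, 2 and 3, and 7 from long-term restriction mouse 1. With doublets kept, the log2 fold change of aged against young mice was -3.70 in granule neuron-like nuclei (edgeR adjusted p = 0.00598) and -2.83 in all nuclei (adjusted p = 0.0591), where it no longer passed.

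Igfbpl1 was not highest in granule neurons when averaged over all mice. Its mean was 0.570 ± 1.25 CPM (SD, n = 13) in CA3 pyramidal-like, 0.520 ± 0.600 in subicular or cortical excitatory-like, 0.309 ± 0.634 in astrocyte-like and 0.289 ± 0.427 in granule neuron-like nuclei, and no neighbours in this order differed beyond the SD of their difference. The CA3 pyramidal-like mean rested on 14 UMIs, with 4.54 CPM in long-term restriction mouse 4 from 4 UMIs. This order pools young and aged mice. In the 3 young mice alone the means were 1.24 ± 0.243 CPM in subicular or cortical excitatory-like, 1.10 ± 0.691 in inhibitory neuron-like, 1.02 ± 0.0472 in granule neuron-like, 0.926 ± 0.985 in astrocyte-like and 0.295 ± 0.511 in CA3 pyramidal-like nuclei. All but the granule neuron-like mean rested on 3 to 11 UMIs.

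The 49 young granule neuron-like nuclei with Igfbpl1 were also compared with the 11882 young nuclei of the class without it, a split made after the values were seen and given with no test, as were the genes named from it. Of the other members, Dcx stood at 119 against 16.4 CPM, Sox11 at 171 against 30.8 CPM and Sox4 at 46.6 against 5.27 CPM, each higher in 3 of 3 young mice. Mki67, Neurod1, Eomes and Top2a had no UMI in the 49 nuclei. In the young mice the last 3 averaged 1.70, 0.0358 and 0.130 CPM in this class. At such levels so few nuclei often hold no UMI. Sema3c, a secreted axon guidance factor, stood at 254 against 1.07 CPM and was found in 22 of the 49. It had the highest ratio of the genes with at least 10 UMIs in at least 5 of the 49 nuclei and in 3 mice. The next in order were Fnbp1l, an actin regulator (119 against 1.31 CPM), Pde4b, a cyclic AMP phosphodiesterase (331 against 12.5 CPM), Mtss1, another actin regulator (145 against 6.11 CPM), and Gm15398 (207 against 11.2 CPM). From the neuroblast list, Stmn2, a growth cone protein that binds tubulin, stood at 140 against 18.1 CPM, and Dpysl3, a cytoskeletal regulator of growing axons, at 98.4 against 11.6 CPM. Draxin, a guidance factor, stood at 46.6 against 0.0916 CPM, from 9 UMIs in 7 of the 49 nuclei.

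Lists were counted over their genes at 1 CPM or more in nuclei without Igfbpl1. Of 20 such genes in the neuroblast and immature neuron list, 11 were more than 2-fold higher in nuclei with Igfbpl1, with a median ratio of 2.44. Of 13 stem or radial glia-like genes 4 were (median 1.19), with 6 at no UMI in the 49 nuclei, and of 11 cell cycle genes 3 were (median 0.306), with 5 at no UMI. Of 16 mature granule neuron genes, none was, with a median ratio of 0.794. Over all 14856 genes at 1 CPM or more, 1991 were more than 2-fold higher and the median ratio was 0.980. These counts are coarse, since the 49 nuclei held few UMIs: 49 Sema3c UMIs made up 254 CPM. A gene near 1 CPM without Igfbpl1 therefore passed 2-fold with 1 UMI and otherwise stood at no UMI. Prox1, the transcription factor that defines granule neurons, stood at 482 against 292 CPM, higher in 3 of 3 young mice. The nuclei with Igfbpl1 were shallower, with a median of 2728 against 5075.5 UMIs (55.1% against 8.69% of nuclei under 3000 UMIs). Of the 49 nuclei, 40 fell in a single cluster, numbered 0, which held 58.4% of the young and 23.6% of the aged nuclei without Igfbpl1. Young and aged granule neuron-like nuclei fell in the clusters in different proportions: cluster 0 held 48.4% to 65.2% of them in the young mice and 7.32% to 39.3% in the aged mice, and cluster 1 held 6.58% to 17.2% and 28.5% to 50.4%. The age contrasts of the class therefore compare different mixtures of clusters, and the part of that in the results was not tested. Within cluster 0, Igfbpl1 was found in 40 of 6985 young nuclei (0.573%) and 8 of 6748 aged nuclei (0.119%), and by mouse in 0.468% to 0.815% of young nuclei. There 2 aged mice reached that range or passed it, old ad libitum mouse 4 with 1 of 192 nuclei and long-term restriction mouse 3 with 2 of 78. In the other granule neuron-like clusters it was found in 9 of 4946 young and 2 of 21777 aged nuclei.

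**Figure D2:**
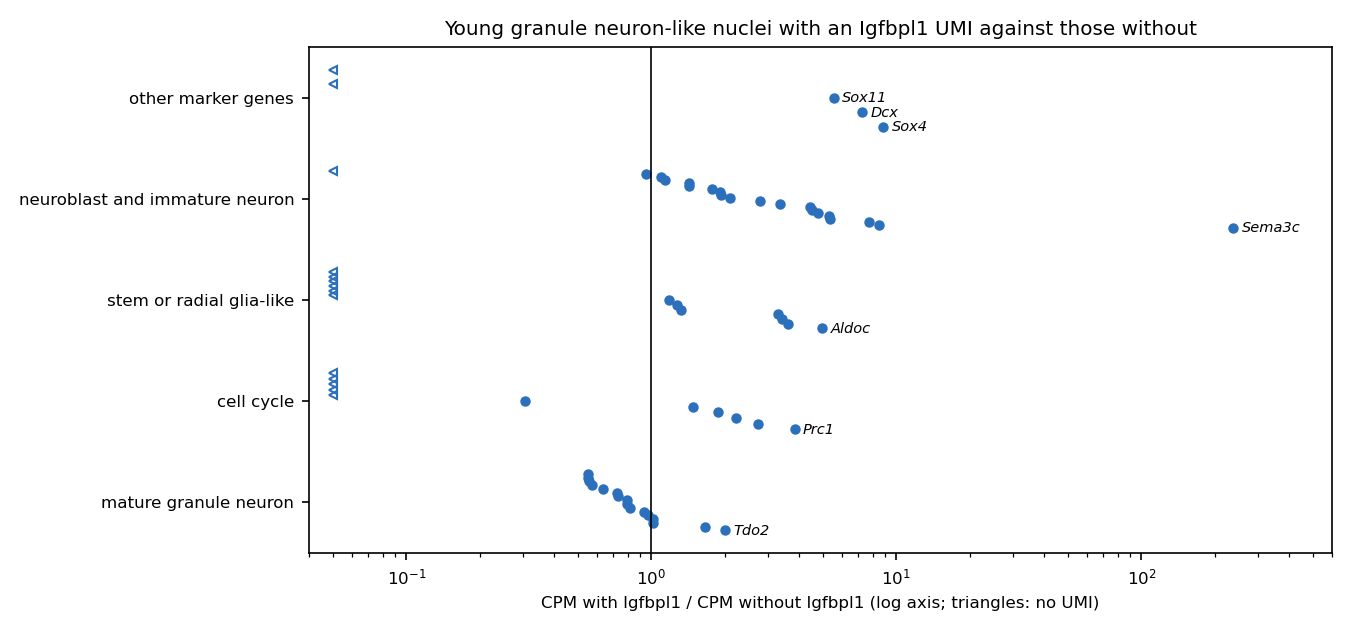
Ratio of the level in young granule neuron-like nuclei with an Igfbpl1 UMI to that in those without (log axis), with 1 point per gene of each list at 1 CPM or more in nuclei without it (Draxin is below that); triangles are genes with no UMI in the 49 nuclei. Sema3c lies farthest right in the neuroblast list, while no mature granule neuron gene is more than 2-fold higher.

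Dcx, a microtubule-associated protein of migrating neurons and the gene most often used to count new neurons, was highest outside granule neurons. The gene lies on chromosome X at 143855842 to 143933311 (minus strand). Its level was 154 ± 16.7 CPM (SD, n = 13) in inhibitory neuron-like nuclei, 102 ± 17.1 in subicular or cortical excitatory-like nuclei and 68.6 ± 13.5 in oligodendrocyte precursor-like nuclei. Inhibitory neuron-like nuclei exceeded the subicular or cortical ones in 13 of 13 mice, and those exceeded the precursors in 12 of 13. Granule neuron-like nuclei stood at 17.6 ± 3.33 CPM, and the neighbours between the precursors and them (hilar mossy-like, CA3 and CA1 pyramidal-like nuclei) differed by less than the SD of their difference.

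In granule neuron-like nuclei, Dcx stood at 15.1, 18.5 and 16.9 CPM in the young mice and 11.1, 16.9 and 18.2 in the old ad libitum mice. It stood at 14.7, 20.3 and 18.3 CPM after acute restriction and 15.2, 17.2, 24.0 and 22.0 after long-term restriction. The groups overlapped throughout. The log2 fold change of aged against young mice was 0.23 (SE 0.17, edgeR adjusted p = 0.317). The libraries numbered 1 held 11.1 to 15.2 CPM and the others 16.9 to 24.0, without overlap, and without those libraries the log2 fold change was 0.32 (adjusted p = 0.145). In nuclei of this class 9.94% had a Dcx UMI (median 6371 UMIs), against 1.24% of oligodendrocyte-like nuclei (median 1885 UMIs). Thinned to 1000 UMIs, the shares were 1.95% and 0.725%. In inhibitory neuron-like nuclei Dcx was at 0.30 log2 (SE 0.10, adjusted p = 0.0865) in aged against young mice, which passed in 3 of 22 alternative fits.

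Sox11, a transcription factor that drives Dcx in immature neurons, was highest in subicular or cortical excitatory-like nuclei (36.6 ± 17.0 CPM), hilar mossy-like nuclei (33.7 ± 19.8) and granule neuron-like nuclei (28.01 ± 5.30). These neighbours in the order differed by less than the SD of their difference. The gene has a single exon on chromosome 12 at 27334264 to 27342574 (minus strand). In granule neuron-like nuclei it stood at 40.6, 24.1 and 26.9 CPM in the young mice and 32.1, 26.9 and 23.7 in the old ad libitum mice. It stood at 30.4, 22.9 and 27.3 CPM after acute restriction and 27.1, 32.2, 19.7 and 30.3 after long-term restriction. The groups overlapped, and the log2 fold change of aged against young mice was -0.01 (SE 0.18, edgeR adjusted p = 0.967), and 0.22 (adjusted p = 0.289) without the libraries numbered 1. In inhibitory neuron-like nuclei Sox11 stood at 28.9, 22.3 and 20.1 CPM in the young mice and at 10.3 to 20.6 CPM in the aged mice. There 4.48% of genes were called, and the log2 fold change was -0.54 (SE 0.17, adjusted p = 0.0707), so Sox11 did not pass. It passed in 2 of 22 alternative fits, with adjusted p of 0.0263 to 0.354 and log2 fold changes of -0.65 to -0.32, and without the libraries numbered 1 it stood at -0.42 (adjusted p = 0.234).

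Sox4, a transcription factor close to Sox11, was highest in glia. Microglia-like nuclei stood at 79.9 ± 35.7 CPM and oligodendrocyte precursor-like nuclei at 72.5 ± 23.3 CPM, and these did not differ beyond the SD of their difference. Fibroblast-like nuclei stood at 18.2 ± 10.4 CPM, lower than the precursors in 9 of 9 mice. Cajal-Retzius-like nuclei, left out of this order because they were few, stood at 52.6 ± 64.5 CPM over 7 mice, from 35 UMIs in 334 nuclei of all mice. The gene has a single exon on chromosome 13 at 28948919 to 28953713 (minus strand), overlapped by Gm26735 on the plus strand, so reads of the pair cannot be told apart without strand. In granule neuron-like nuclei Sox4 stood at 5.64, 4.19 and 6.11 CPM in the young mice and 2.75, 3.85 and 3.09 in the old ad libitum mice. Under acute restriction it stood at 3.23, 4.42 and 3.60 CPM, and after long-term restriction at 3.63, 5.08, 2.05 and 2.84. The young and old ad libitum mice did not overlap, but the log2 fold change of -0.55 (SE 0.28) did not pass (edgeR adjusted p = 0.213), and without the libraries numbered 1 it was -0.39 (adjusted p = 0.432).

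**Figure D3:**
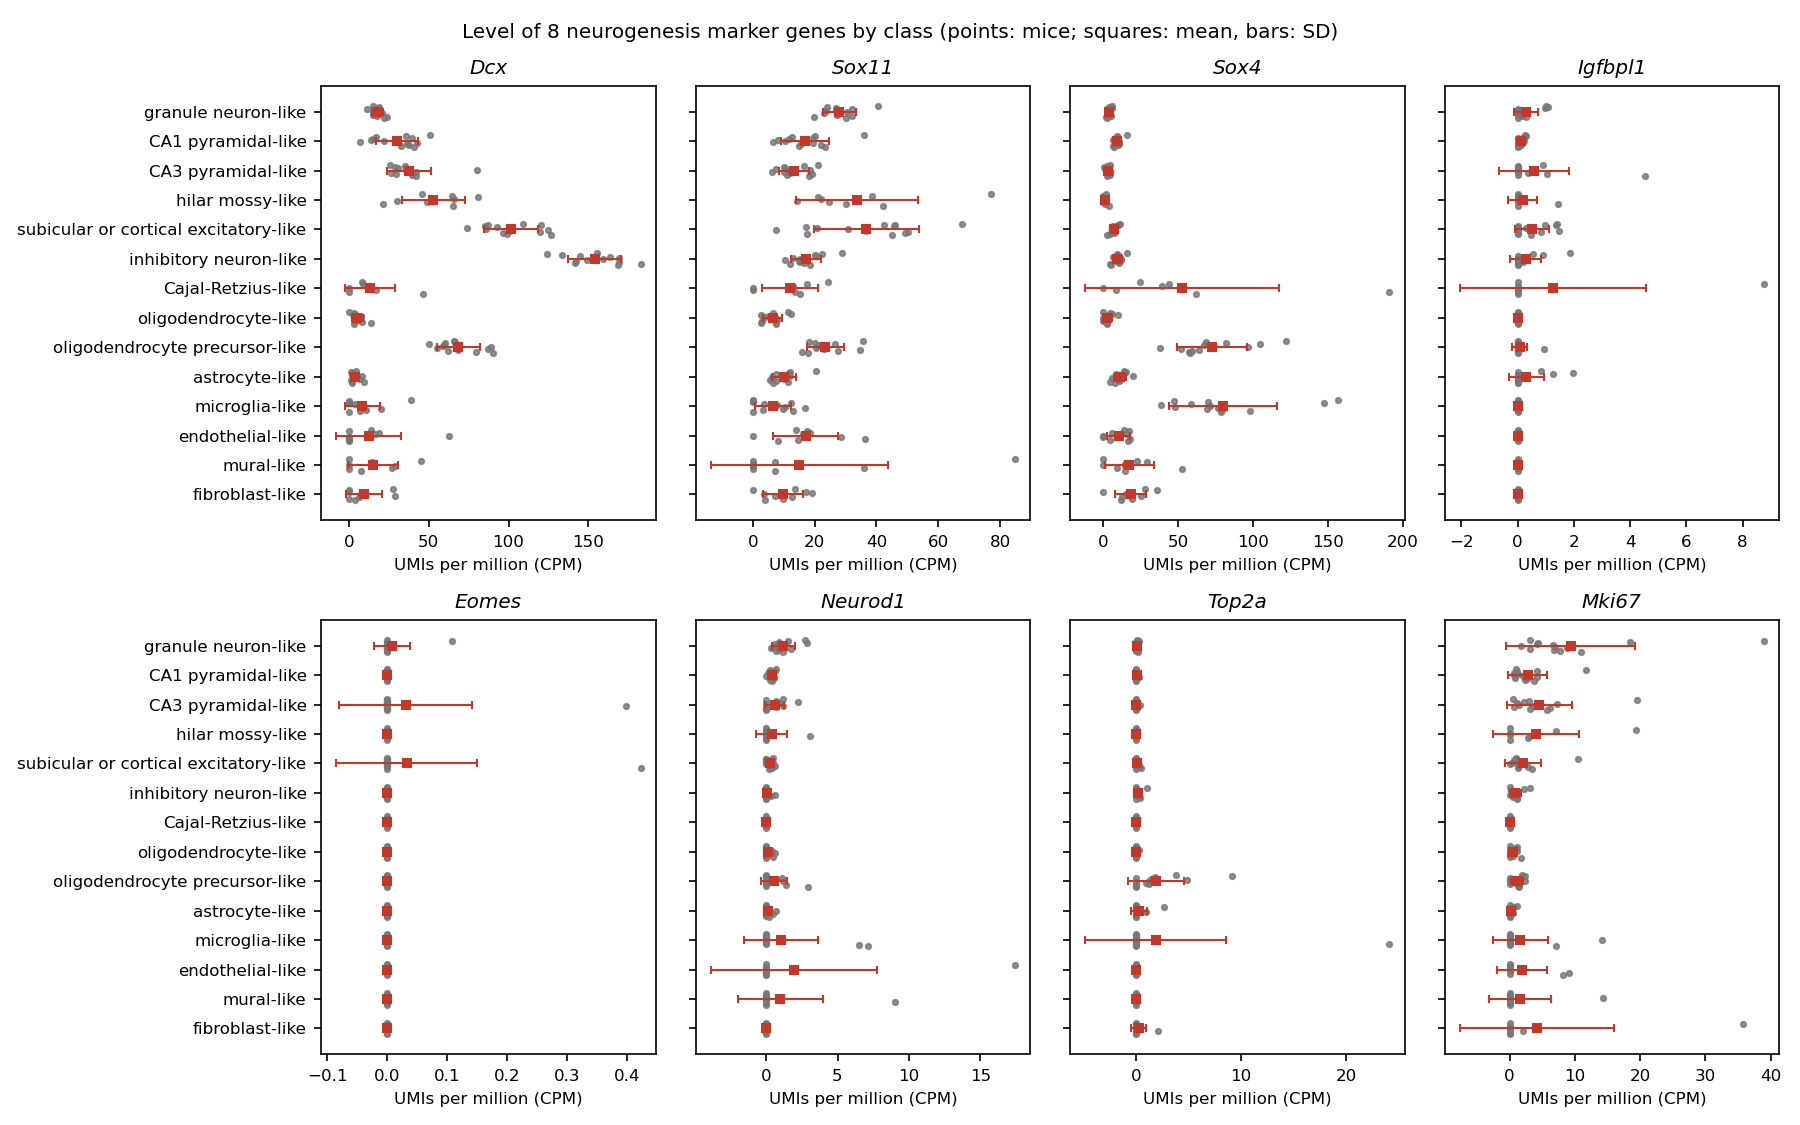
Level (CPM) of the 8 marker genes in 14 marker-defined classes, with 1 point per mouse with at least 20 nuclei, squares for the mean and bars for the SD. Dcx is highest in inhibitory neuron-like nuclei at 154 CPM, Sox4 in microglia-like and oligodendrocyte precursor-like nuclei, and Mki67 in granule neuron-like nuclei at 9.37 CPM, above CA3 pyramidal-like nuclei in 12 of 13 mice but by less than the SD of the difference.

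Neurod1, a transcription factor of granule neuron differentiation, stood at 1.20 ± 0.799 CPM in granule neuron-like nuclei. The gene lies on chromosome 2 at 79452521 to 79456751 (minus strand), overlapped by Cerkl on the same strand and Gm26755 on the other. Its levels were 2.72, 1.50 and 0.892 CPM in the young mice and 2.84, 0.589 and 0.760 in the old ad libitum mice. They were 0.873, 0.529 and 0.370 CPM after acute restriction and 1.74, 0.880, 0.684 and 1.17 after long-term restriction. Within each group the library numbered 1 was the highest, with 0.873 to 2.84 CPM against 0.370 to 1.50 in the other libraries. The log2 fold change of aged against young mice was -0.69 (SE 0.47, edgeR adjusted p = 0.289), and -0.66 (adjusted p = 0.138) without the libraries numbered 1. Eomes had 9 UMIs in 7 nuclei of all 98041, with 2 of them in granule neuron-like nuclei, both from young mouse 2. The gene is overlapped by Gm33460 on the other strand. Its differences between groups were not detectable at this depth.

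Mki67 and Top2a, both expressed in dividing cells, stood at different levels in granule neuron-like nuclei, where Mki67 was found in many nuclei and Top2a in few. Mki67 (chromosome 7, 135689784 to 135716361, minus strand) encodes a protein of the mitotic chromosome surface, and Top2a (chromosome 11, 98992943 to 99024189, minus strand) the topoisomerase that untangles DNA in division. Their promoters are shown because the pair is known to share control through CCAAT boxes and the cell cycle genes homology region. Each window runs from 250 bases before to 50 bases after the start, 5′ to 3′ along the gene, from RefSeq on GRCm38.p6, at chr11:99024140-99024439 and chr7:135716330-135716629, both on the minus strand. Capitals mark CCAAT or its reverse complement ATTGG, and TTTGAA or its reverse complement TTCAAA.

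Top2a: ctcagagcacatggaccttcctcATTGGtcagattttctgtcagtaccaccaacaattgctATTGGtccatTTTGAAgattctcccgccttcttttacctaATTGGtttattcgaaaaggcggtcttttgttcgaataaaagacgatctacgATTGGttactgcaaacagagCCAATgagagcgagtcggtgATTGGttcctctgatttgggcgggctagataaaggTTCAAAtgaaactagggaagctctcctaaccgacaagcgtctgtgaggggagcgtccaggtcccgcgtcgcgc
Mki67: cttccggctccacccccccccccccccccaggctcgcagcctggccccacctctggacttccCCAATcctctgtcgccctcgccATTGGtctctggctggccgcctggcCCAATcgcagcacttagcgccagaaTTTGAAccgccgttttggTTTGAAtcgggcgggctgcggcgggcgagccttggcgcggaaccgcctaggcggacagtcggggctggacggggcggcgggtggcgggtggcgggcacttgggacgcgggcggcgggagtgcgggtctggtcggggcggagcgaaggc

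The Top2a window held 6 CCAAT and 2 TTTGAA matches and the Mki67 window 3 and 2, with no match overlapping another. Of 32851 promoter windows of this length, 37.4% held CCAAT and 17.9% held TTTGAA on either strand. A match describes the letters and is not a site of binding.

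Mki67 UMIs were found in 2330 of 40456 granule neuron-like nuclei (5.76%, exact 95% interval 5.53% to 5.99%, counting error only). By mouse the share ran from 2.09% to 14.0% in the young mice and from 1.22% to 7.55% in the aged mice. The share was 0.120% in oligodendrocyte-like nuclei, and 1.01% against 0.0725% after thinning to 1000 UMIs. Mki67 was not confined to granule neuron-like nuclei. It was found in 242 of 11464 CA1 pyramidal-like nuclei, and in 29 of 637 young and 78 of 2385 aged CA3 pyramidal-like nuclei. Top2a UMIs were found in 23 granule neuron-like nuclei, and none of them had Mki67, against 1.60 from the product of their shares, so a lack of overlap was not detectable at this depth. None of the 2330 nuclei with Mki67 had UMIs of 5 or more of 24 other cell cycle genes. At least 2 of those genes were found in 5.97% of granule neuron-like nuclei with Mki67 and 4.51% of those without, at medians of 6369 and 6371 UMIs. These shares pool nuclei over mice. Young mice gave 1100 of the 2330 nuclei with Mki67 and 11931 of the 40456 nuclei of the class. The part of age in the difference was not tested. With Top2a the share was 1 of 23 (4.35%), against 4.60% without it. Mki67 is overlapped by Gm45240 on the plus strand and Top2a by Gm26394 on the plus and Gm23451 on the minus strand, and the counting of introns and strand is not given in the sources used here.

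Top2a was found in 15 of 2961 oligodendrocyte precursor-like nuclei (0.507%, exact 95% interval 0.284% to 0.834%, counting error only in nuclei pooled over mice). Of those 15, 10 had at least 2 other cell cycle genes (66.7%, against 2.14% of precursors without Top2a) and 6 had at least 5. Across all classes 15 nuclei had at least 5 of the 24 cell cycle genes. By class, 7 were oligodendrocyte precursor-like and 1 was granule neuron-like, with 2 subicular or cortical excitatory-like, 2 microglia-like, 1 astrocyte-like and 2 unnamed, and 10 of the 15 had Top2a and 2 had Mki67.

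**Figure D4:**
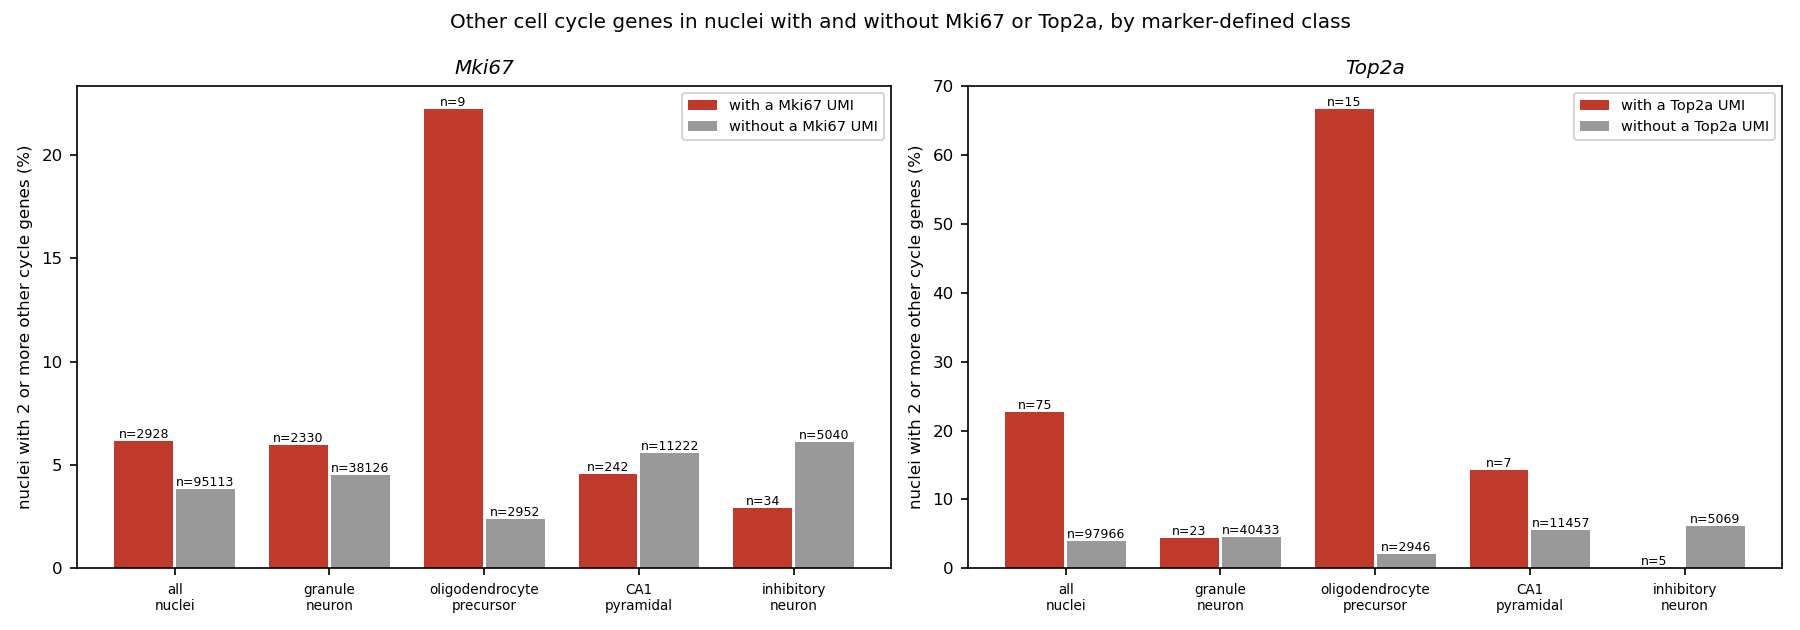
Share of nuclei with at least 2 of 24 other cell cycle genes (percent, bars), in nuclei with a UMI of Mki67 (left) or Top2a (right) and in those without, by class with at least 5 such nuclei, with the number of nuclei above each bar. In oligodendrocyte precursor-like nuclei the share is 66.7% with Top2a and 2.14% without, and in granule neuron-like nuclei 5.97% with Mki67 and 4.51% without. Nuclei are pooled over mice.

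Across mice, Mki67 in granule neuron-like nuclei stood at 3.08, 39.0 and 18.4 CPM in the young mice and 4.36, 4.19 and 6.66 in the old ad libitum mice. Under acute restriction it stood at 1.80, 6.97 and 8.84 CPM, and after long-term restriction at 3.08, 6.79, 7.72 and 10.9. Young mice 2 and 3 were above every aged mouse, while young mouse 1 was within their range. The log2 fold change of aged against young mice was -1.53 (SE 0.55) and did not pass (edgeR adjusted p = 0.0788). Libraries numbered 1 held 1.80 to 4.36 CPM and the others 4.19 to 39.0. Without those libraries the log2 fold change was -1.79 (edgeR adjusted p = 0.00114). That omission, chosen after seeing the data, drops young mouse 1, the young mouse within the aged range. There 24.9% of all genes were called. Without young mouse 2 the log2 fold change was -0.71 (adjusted p = 0.520). With median UMIs per nucleus as a covariate it was -0.67 (adjusted p = 0.746). It passed in 4 of 22 alternative fits, and in 2 of 22 for old against young ad libitum mice. In all nuclei, Mki67 stood at 1.66, 24.9 and 11.3 CPM in the young mice and at 1.12 to 6.49 CPM in the aged mice, with a log2 fold change of -1.77 (SE 0.57, adjusted p = 0.0913). There it passed in 5 of 22 alternative fits, with values from -2.28 to -0.25 and adjusted p of 0.00546 to 0.881.

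Neither form of restriction gave a call for any member. DESeq2 gave no adjusted p for 4 of 35 fits under long-term restriction and 8 under acute restriction. For long-term against acute restriction it gave none for 2, so its counts below do not cover these fits. Long-term restriction against the old ad libitum mice gave 0 calls by edgeR in 35 fits and 0 by DESeq2, against 0.0447% of all fits of all genes. At an unadjusted p under 0.05 there were 2 of the 35, against 4.42% of all fits. The smallest p was that of Dcx in subicular or cortical excitatory-like nuclei, at 85.0, 92.8 and 73.9 CPM in the old ad libitum mice and 120, 96.4, 99.2 and 127 after long-term restriction. All 4 restricted mice were above the 3 controls, with a log2 fold change of 0.41 (SE 0.16, edgeR adjusted p = 0.9997). Acute restriction gave 0 calls by edgeR and 0 by DESeq2, against 0.19% of all fits, and 1 at an unadjusted p under 0.05, against 4.79%. That 1 was Dcx in oligodendrocyte precursor-like nuclei, at 50.0, 59.5 and 58.9 CPM in the old ad libitum mice and 89.2, 54.8 and 86.9 under acute restriction (log2 fold change 0.49, SE 0.19, adjusted p = 0.624). Long-term against acute restriction gave 0 calls by edgeR and 0 by DESeq2, against 0.0114% of all fits, and 0 at an unadjusted p under 0.05, against 2.96%. The smallest p was that of Sox11 in CA3 pyramidal-like nuclei (log2 fold change 0.63, SE 0.32, adjusted p = 0.9999). Igfbpl1 in granule neuron-like nuclei was at 0.68 log2 (SE 1.28) under long-term and -0.18 (SE 1.44) under acute restriction, so changes of either sign lay within the error.

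Other genes of adult neurogenesis, from 4 lists, were read in granule neuron-like nuclei for aged against young mice, where 14.2% of all genes were called and the median log2 fold change of all genes was -0.07. Of 22 neuroblast genes tested, 2 fell and 3 rose (median -0.12). Sema3c fell by 1.37 on the log2 scale (SE 0.32, edgeR adjusted p = 0.0195) and Mex3b, an RNA-binding protein, fell by 0.55 (adjusted p = 0.0480). Sema3c stood at 0.690, 2.26 and 2.68 CPM in the young mice and 0.391 to 0.903 CPM in the aged mice, so young mouse 1 lay within the aged range. The 3 that rose were St8sia4, Plxna4 and Ncam1. Without the libraries numbered 1, where 24.9% of all genes were called, 3 of the 22 fell (Sema3c, Nnat and Bhlhe22) and 2 rose (St8sia4 and Ncam1). There Sema3c stood at -1.73 (edgeR adjusted p = 0.00174), while Mex3b at -0.38 no longer passed (adjusted p = 0.192).

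Of 15 stem or radial glia-like genes, 3 fell and 2 rose (median -0.43). Fabp7, a fatty acid-binding protein of radial glia, fell by 1.78 (SE 0.34, edgeR adjusted p = 0.0106), and E2f5 also fell, while Notch2 and Slc1a3 rose. Fabp7 needed the young mice, at 1.50, 1.18 and 0.624 CPM, to pass the filter on low counts. Of the aged mice only old ad libitum mouse 1 (0.569 CPM) and long-term restriction mouse 2 (0.489 CPM) reached the filter's level of 0.452 CPM. A gene admitted this way is one that differs. Of 16 cell cycle genes, 2 fell (Kif15 and Cdca8) and none rose (median -0.30). Cdca8, a subunit of the chromosomal passenger complex, stood at 1.38, 2.63 and 2.19 CPM in the young mice and at 0.581 to 1.42 in the aged mice. Of 16 mature granule neuron genes, 5 rose and none fell (median 0.11), led by Maml2, a Notch coactivator (log2 fold change 0.61, SE 0.10, adjusted p = 0.00623). Without the libraries numbered 1, 2 stem or radial glia-like genes fell, Fabp7 (log2 fold change -1.41, edgeR adjusted p = 0.0246) and E2f5, and Notch2 and Slc1a3 again rose. There too Fabp7 needed the young mice to pass the filter, with 1.18 and 0.624 CPM against 0.0978 to 0.489 CPM in the aged mice. Of the cell cycle genes 4 then fell (Knl1, Kif15, Cdca8 and Nusap1), and of the mature granule neuron genes 4 rose, led by Pdzd2 and Maml2, while Tdo2 and Dsp fell. In old against young ad libitum mice, with all libraries, Maml2 and Notch2 rose and Cdca8 fell, and no neuroblast gene was called.

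Co-detection was read in single nuclei. UMIs of at least 3 of the 8 genes were found in 405 of 98041 nuclei (0.413%), and these were deeper, with a median of 10648 against 6053 UMIs. The usual combination was Dcx, Sox11 and Sox4, in 244 nuclei, followed by Dcx, Sox11 and Mki67 in 77. The nuclei were spread over classes, with 95 CA1 pyramidal-like, 88 unnamed, 75 granule neuron-like, 66 subicular or cortical excitatory-like and 45 inhibitory neuron-like. By group the share was 0.503% ± 0.350 (SD, n = 3) in the young mice, 0.647% ± 0.787 (n = 3) in the old ad libitum mice, 0.277% ± 0.143 (n = 3) after acute and 0.463% ± 0.135 (n = 4) after long-term restriction, with overlap throughout. After thinning to 2000 UMIs, 12 young, 1 old ad libitum, 3 acute and 2 long-term restriction nuclei remained. Of these, 5 were granule neuron-like and all 5 came from young mouse 3.

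Within granule neuron-like nuclei, Igfbpl1 was found together with Dcx in 18 nuclei, against 5.14 from the product of their shares summed over mice, above the product in 4 of 13 mice. It was found with Sox11 in 21 nuclei, against 8.81 (6 of 13 mice), and with Sox4 in 6, against 1.58 (3 of 13 mice). In this class 5 aged mice had no Igfbpl1 UMI and so could not lie above these products. Dcx and Sox11 met in 728 nuclei, against 655, above the product in 12 of 13 mice. Mki67 met Dcx in 216 nuclei (product 224), Sox4 in 43 (product 55.4) and Igfbpl1 in 1 (product 4.86). With Sox11 it went the other way, in 346 nuclei (product 331), above the product in 8 of 13 mice. After thinning to 2000 UMIs, Igfbpl1 met Dcx in 6 nuclei (product 0.732) and Sox11 in 9 (product 1.27), while Dcx and Sox11 met in 76 (product 78.2). The leading gene of the 75 granule neuron-like nuclei with at least 3 members, apart from the members, was Sema3c, at a ratio of 35.8 to nuclei of the class with fewer, from 18 UMIs in 8 of the 75 nuclei in 4 mice. It was followed by St6gal1 (8.47), Fnbp1l (8.02), Epb41l5 (5.81) and Mtss1 (5.32). Igfbpl1 is itself 1 of the members counted, in 30 of the 405 nuclei of all classes with at least 3. These genes may thus come from nuclei that the split by Igfbpl1 also held, which was not tested.

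The genes whose level over the 14 classes was most like a member's were found by Pearson's correlation of log2(CPM + 1), given as a description over classes that share libraries. Frmd3 (0.962), Mcf2 and Vsnl1 were most like Dcx, all highest in inhibitory neuron-like nuclei. Cdh22 (0.877) was most like Sox11, Marcks (0.886) most like Sox4 and Bop1 (0.908) most like Mki67. Top2a was most like Tlr5 (0.973), which is highest in microglia-like nuclei, where 1 nucleus held all 7 Top2a UMIs of that class.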

How the data were processed

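Each of the 13 libraries was deposited by the authors as a matrix of raw UMI counts per gene and barcode. Cell Ranger 4.0.0 and the mm10 build are named per the file headers and the submitters' processing notes, and the counting of introns and strand is not given in the sources used here. Nuclei had been isolated, stained with Hoechst and sorted, per the labels' protocols. A barcode needed 500 genes and no more than 5% of UMIs from mitochondrial genes (105427 of 105759 were kept), Scrublet marked 7386 doublets, which were removed, and scanpy 1.11.5 with leidenalg 0.10.2 gave 34 clusters from 2000 variable genes that excluded the 8 members. A cluster was named where at least 3 markers of a list were raised and the list's mean log2 fold was at least 1. The 8 genes, the lists and the tests were chosen with earlier results of these data known.

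Counts were summed per mouse and class (at least 20 nuclei) and fitted over all groups with edgeR 4.0.16 (TMM, filterByExpr, quasi-likelihood test, Benjamini-Hochberg adjustment over all genes of a class, threshold 0.05). Each mouse gave 1 library, so p-values measure the spread between these mice. DESeq2 1.42.0, other filters, covariates and omissions were alternatives. The genes named were the members, up to 3 list genes of smallest adjusted p per direction, the 3 most alike and the leading genes by ratio. One list gene that passed is not reported here. Genes named from the split by Igfbpl1 were chosen after their values were seen. Shares were also read after thinning nuclei to 1000 or 2000 UMIs, leaving out shallower nuclei. Pairs of libraries shared 4 to 40 barcodes, 0.42 to 1.89 times the number random draws give. On simulated granule counts for old against young mice (16903 genes), the test recovered 58 of 100 genes changed 2-fold and 83 of 100 changed 4-fold. Gene positions came from GENCODE on GRCm38. Promoters came from RefSeq on GRCm38.p6, which held 7 of the 8 genes.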

Additional observations from a re-analysis of the deposited data

How the results depend on the processing

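Igfbpl1, the only member that passed the test, had entered it through the young mice alone, which did not overlap the aged mice. Its log2 fold change kept its sign in the alternatives run, which was thereby fixed in advance and is no support. That of Sox11 in granule neuron-like nuclei for aged against young mice, -0.01 with all libraries, was 0.031 with a term for the libraries numbered 1, 0.0064 with the replicate block, 0.22 without those libraries, and -0.21 (without young mouse 2) to 0.30 (without young mouse 1) with each mouse left out. Of values given with no test, the order of Dcx with Sox11 in granule neuron-like nuclei against the product of their shares turned on thinning to 2000 UMIs, from 728 against 655 (12 of 13 mice above it) to 76 against 78.2 (5 of 13). The share of nuclei with at least 3 members also turned, with the old ad libitum mean above the young one as deposited and below it once thinned. The count of member fits called in old against young ad libitum mice, 1 of 35, was 0 with DESeq2 and with median UMIs per nucleus as a covariate, 3 with a term for the libraries numbered 1, 5 without those libraries (chosen after seeing the data), and 0 to 2 with each mouse left out. That for aged against young mice, 2 of 35, was 1 with DESeq2, with DESeq2's size factors in edgeR and with doublets kept, 0 with the depth covariate, 6 with the number 1 term, 5 without those libraries and 1 to 5 with each mouse left out. With the replicate number as a block the counts were 1 and 5. DESeq2 gave no adjusted p for 15 (old against young ad libitum) and 6 (aged against young) of the 35 fits. Calls over all genes rose too without the libraries numbered 1. In granule neuron-like nuclei they were then 16.6% and 24.9% of genes, against 3.41% and 14.2% with all libraries. The share over all genes is not given for the other alternatives, so these member counts are no result about the members. Whether the replicate numbers pair the mice was not settled. Of 16 same-numbered pairs 11 correlated above 0.1 (median 0.354), 6 of 6 for number 1 and 5 of 10 for the others. Of pairs with different numbers, 15 of 47 did (median -0.0871). The deviations are from group means that hold the libraries numbered 1, so this check cannot decide it. Every restriction count stayed at 0 in each alternative run.

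Thinning to 2000 UMIs lowered the mean share of nuclei with at least 3 members to 0.0575% (young), 0.0100% (old ad libitum), 0.0115% (acute) and 0.00570% (long-term restriction). Asking for at least 2 UMIs of each member gave 0.0130%, 0.0443%, 0.00699% and 0.00857% in that order, from 2 to 5 nuclei a group. The mean shares of granule neuron-like nuclei with a UMI, thinned to 1000 and 2000 UMIs, were 1.94% and 3.52% for Dcx, 2.88% and 5.66% for Sox11, 0.462% and 0.878% for Sox4 and 0.869% and 1.79% for Mki67. Pairs of members above the product of their shares in all nuclei numbered 20, and 10 after thinning to 2000 UMIs. Depth limits Eomes and Top2a, with 9 and 90 UMIs in all nuclei, and the aged Igfbpl1 level, which rests on 12 UMIs.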
